A study of Mus musculus with 57 samples.

Results

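Cyp11a1 encodes the side-chain cleavage enzyme P450scc, which sits in the inner mitochondrial membrane and turns cholesterol into pregnenolone, the precursor of all steroid hormones. The gene is listed as cyp11a1, and it was chosen by its name, with its high and uneven level in these cells already known. It is 1 of 10565 genes in the deposited table, and it is described here over all 56 cells. Its level and its variation are therefore descriptions, with no test.

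The cells were wild-type T helper 2 (Th2) cells from C57BL/6 mice aged 8 weeks. Splenic CD4+ T cells were activated through CD3 and CD28 with interleukin-4 and anti-IFNγ, given interleukin-2 after 2 days, cultured for 5 days and stimulated once more through both receptors. A Fluidigm C1 chip isolated the cells singly. All cells share this treatment, and an untreated or non-Th2 group was not analysed here, nor was a pool of 10000 cells. The sample titles place the cells in 5 sets, T1 to T5, whose meaning is not given in the labels. No label names separate mice or cultures, so the cells count as 1 sample.

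Steroid hormones are made in steps. Cholesterol must reach the inner mitochondrial membrane, with the help of proteins such as StAR, and electrons pass from ferredoxin reductase (Fdxr) through ferredoxin (Fdx1) to P450scc. Later enzymes, among them 3β-hydroxysteroid dehydrogenases and Cyp17a1, convert pregnenolone to progesterone, androgens and glucocorticoids. The adrenal gland, gonads and placenta are the classic sites, and activated Th2 cells are a known T cell source of pregnenolone, which acts on immune cells.

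RefSeq, in the GRCm38.p6 build, gives Cyp11a1 2 start sites 16.9 kb apart on the plus strand, which the gene-level TPM does not separate. The 250 bases before each start were searched on both strands for AAGGTCA (known for NR4A receptors and SF-1, the steroidogenic factor), TGACGTCA (CREB), TGANTCA (AP-1), AGATAA (bound by factors such as Gata3) and TATAAA (the core promoter box), and none was found. Of 32851 such windows in the RefSeq table, 4.08%, 1.55%, 6.75%, 9.99% and 12.4% hold these letters, in the order named. AGGTCA is also part of AAGGTCA. The shorter form alone, added after the windows had been seen, is in 14.0% of windows, among them that of the downstream start, where its first base lies 28 bases before the start. It is shown because receptors of this family are known regulators of the gene, in capitals within 30 bases, 5′ to 3′.

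Cyp11a1 downstream start, chr9:58014912-58014941, plus strand: gaggaaggggggAGGTCAccgctccatcag

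A match of letters describes the window only, and another annotation places this downstream window in an untranslated region of a transcript. SF-1 (Nr5a1) was not analysed here, and Nr4a1, which binds related sites, was in 31 cells.

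Values are TPM (transcripts scaled by length and by the total of each cell), so levels of different genes can be set side by side. The authors' values are whole numbers. Read depth per cell is unknown, since TPM does not retain it, and a gene listed at 0 may have been lost in capture or amplification. A gene counts as detected at 1 TPM or more. Cells had from 2679 to 8396 genes detected, with a median of 4743.5. Cells T3_2 (where Cyp11a1 was at 8 TPM) and T3_5 (636 TPM) stood apart from the others. T3_2 had the least Gata3 (55 TPM) and the least Cd2 (7 TPM) of all cells, and T3_5 had the most genes detected, 8396. Without them the mean of Cyp11a1 was 1144.7 TPM and the share of cells with it was 90.7%.

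Cyp11a1 was among the most abundant transcripts. Its mean was 1115 TPM (SD 1307 over 56 cells), higher than the means of 98.8% of the genes and at rank 126. It was detected in 51 of 56 cells (91.1%, exact Clopper-Pearson 95% interval 80.4 to 97.0, covering counting error only). Levels in single cells ran from 0 to 5891 TPM, with a median of 752.5. The middle of the distribution lay between 102 and 1328 TPM (lower and upper quartile).

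The share of cells fell as the threshold rose. At 10 TPM or more the gene was in 48 cells (85.7%, interval 73.8 to 93.6), at 100 TPM or more in 42 (75.0%, 61.6 to 85.6), and at 1000 TPM or more in 24 (42.9%, 29.7 to 56.8). No cell lay between 126 and 363 TPM, so that 16 cells were at or below 126 TPM and 40 cells at or above 363. Of these 16 cells, 5 were listed at 0 and 11 ran from 3 to 126 TPM.

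At the top of the distribution 4 cells stood above the rest. They were T2_5 at 5891 TPM, T3_4 at 5092, T2_1 at 4615 and T5_4 at 4602, and the next cell, T4_11, was at 2503. Together these 4 cells held 32.3% of all Cyp11a1 TPM. They had 4013, 4750, 5481 and 4307 genes detected, on both sides of the median of 4743.5. All 4 held the T cell genes Cd3d (624 to 1611 TPM), Cd3e (45 to 301) and Cd2 (1779 to 4842).

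The 5 cells in which Cyp11a1 was listed at 0 were T2_8, T3_1, T3_7, T5_2 and T5_7. They had 4166, 3666, 4102, 4696 and 5377 genes detected. All were above the lowest cell, but only T5_7 was above the median of 4743.5. Cd3d was at 846, 102, 1283, 1367 and 1936 TPM in them, and the Th2 master regulator Gata3 at 374, 253, 1395, 221 and 1188 TPM. Cd2 was at 916, 56, 1602, 11 and 1672 TPM (median of all cells 1434.5), and Il4 at 1271, 8, 248, 4 and 4195 TPM (median 420). Some T cell and Th2 transcripts were measured in each cell without Cyp11a1, but Cd2 and Il4 were low in T3_1 and T5_2. Of the 4 cells with Cyp11a1 at 3 to 11 TPM, T3_3, T3_2 and T4_3 had few genes detected (2906, 3096 and 2679) and T5_9 had 4854. Whether loss of the transcript accounts for these low values was not tested.

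Levels within each set spread widely. In T1 (8 cells) the levels ran from 104 to 2379 TPM with a median of 1061. In T2 (12 cells) they ran from 0 to 5891 with a median of 659.5, and in T3 (12 cells) from 0 to 5092 with a median of 633.5. T4 (12 cells) held 11 to 2503 TPM with a median of 860.5, and T5 (12 cells) 0 to 4602 with a median of 973.5. The ranges of all 5 sets overlap, and differences between set means took up 5.36% of the sum of squares of log2(TPM + 1). No cell of T1 or T4 was listed at 0, and none of them was among the 4 highest.

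**Figure D1:**
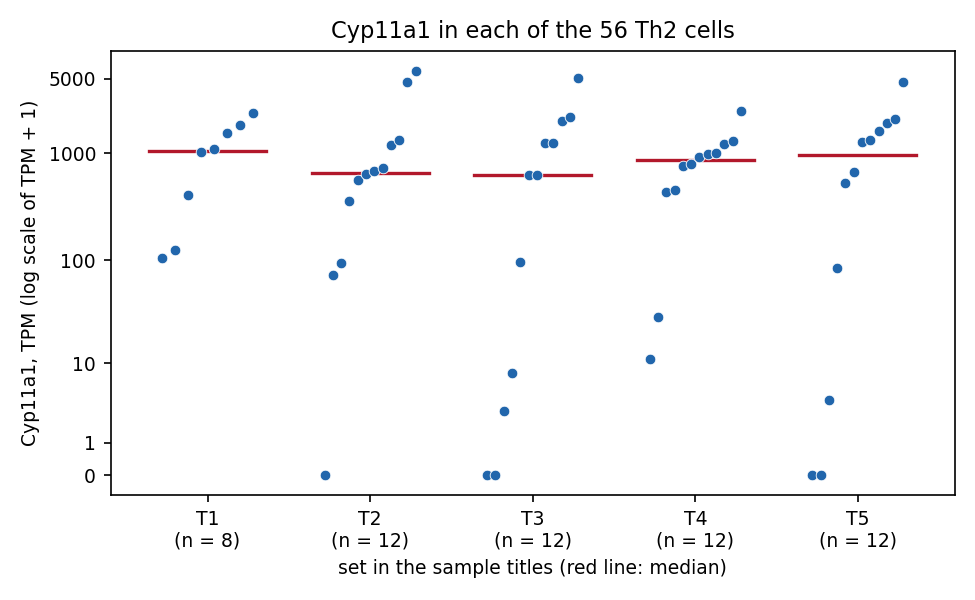
Level of Cyp11a1 in each of the 56 cells, in TPM on a log scale of TPM + 1, with cells placed by set and by rank within the set, and a red line at each set's median. Medians lie between 633.5 and 1061 TPM, and cells at 0 are found in T2, T3 and T5.

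Variation between cells was compared with that of genes of similar level. The measure was the squared coefficient of variation (CV2), and the excess is the distance of log2 CV2 from a running median over genes of similar mean TPM. Log2 CV2 was 0.46 for Cyp11a1 against a running median of -1.55. The excess was 2.01, at rank 174 of 7871 genes, those found in 10 cells or more. Of these genes 13.1% exceeded 1. The rank was 338 without T2, 102 without T3 and 62 without the highest cell of each gene. The gene was chosen with this value known. Dropping the highest cell of every gene left the excess at 2.01, and without any single set it lay between 1.58 and 2.13.

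Its detection was also lower than that of genes of like abundance. Of the 100 genes nearest in mean (847.2 to 1722 TPM), 96 were detected in more cells than Cyp11a1, 56 of them in every cell, and 3 in fewer. The 5 genes just above and the 5 just below it in mean level were each in 55 or 56 cells, with excess values from -0.90 to 3.53. Only 7 of the 100 had a larger CV2.

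**Figure D2:**
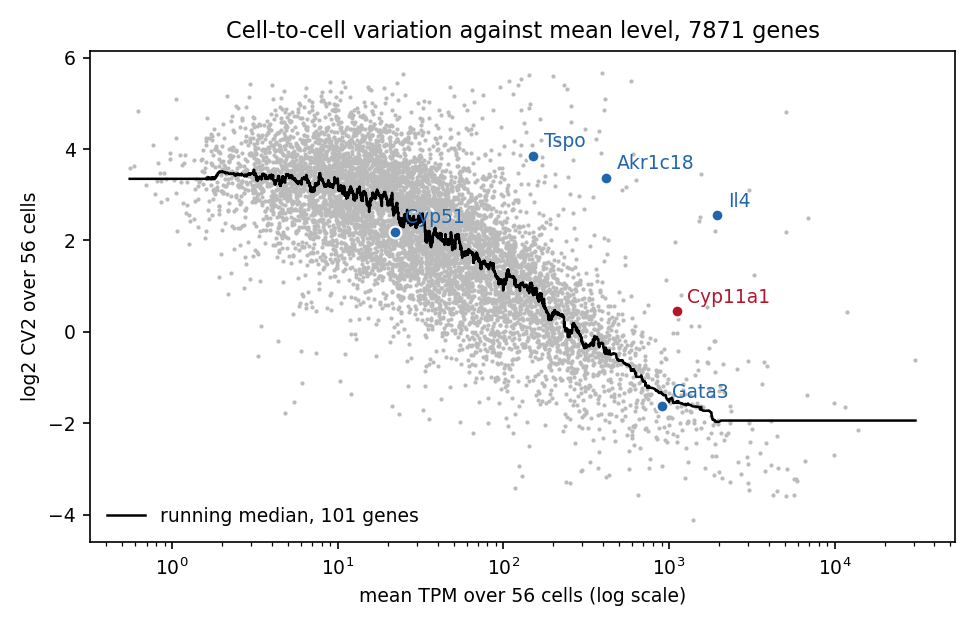
Log2 CV2 over 56 cells (vertical) against mean TPM on a log scale (horizontal), 1 point per gene, with the running median as a black line. Cyp11a1 (red) lies 2.01 above the line, whereas the regulator Gata3 lies 0.27 below it.

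Transcripts of StAR and of the ferredoxin pair that feeds P450scc were found in fewer cells than Cyp11a1 and at lower TPM. Star, the main carrier of cholesterol into steroidogenic mitochondria, was detected in 2 cells, at 2 TPM in T2_6 and 69 TPM in T4_5, where Cyp11a1 was at 363 and 767 TPM. The mitochondrial protein Tspo, which binds cholesterol, was in 35 cells at a mean of 150.9 TPM. Cell T5_4, with 4179 TPM, held 49.4% of its total and was also among the 4 highest for Cyp11a1. Stard3, which moves cholesterol from late endosomes, was in 29 cells at 104.3 TPM.

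Fdx1, the electron donor of P450scc, was in 23 cells at a mean of 10.36 TPM (0 to 122). In 21 of them Cyp11a1 was also detected, at 363 TPM or more, and the other 2 were T2_8 (3 TPM of Fdx1) and T5_7 (12 TPM), where Cyp11a1 was listed at 0. None of the 11 cells with 3 to 126 TPM of Cyp11a1 had Fdx1. That range was set by the gap seen in these same values, and some of these cells had few genes detected. How many other genes are absent from the 11 cells was not counted, so the absence is no sign of a link. Ferredoxin reductase, Fdxr, was in 2 cells, T3_4 (10 TPM) and T3_11 (3 TPM), which held 5092 and 1257 TPM of Cyp11a1. Fdx1l, a related ferredoxin, was in 25 cells at 11.16 TPM. Fdx1 and Tspo were detected together in 17 cells, and all 17 had Cyp11a1. As Cyp11a1 was in 51 of 56 cells, at most 5 cells could hold another gene without it.

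Other supply genes were measured more widely. Por, the reductase that serves P450 enzymes of the endoplasmic reticulum, was in 26 cells at 18.41 TPM. Cytochrome b5 (Cyb5) was in 51 cells at 497.6 TPM and Vdac2, a channel of the outer mitochondrial membrane, was in all 56 at 348.6 TPM. The acyl-CoA binding protein Dbi, a ligand of Tspo, was in 50 cells at 185.8 TPM.

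Steroid-converting enzymes ranged from 3 to 54 cells. Of the listed 41 enzymes of steroid synthesis and conversion, 11 are described, and the other 30, among them Cyp17a1, Cyp21a1, Cyp11b1, Cyp19a1 and Hsd3b1, were not analysed here. Hsd3b7, a relative of Hsd3b1 known from bile acid synthesis, was in 3 cells, T1_3 at 259 TPM, T3_4 at 23 and T3_5 at 4. Hsd11b1, which regenerates active glucocorticoid, was in 18 cells at a mean of 53.75 TPM. All 18 had Cyp11a1 detected, as did 51 of all 56 cells. Srd5a3, a 5α-reductase family member that serves protein glycosylation, was in 17 cells at 40.91 TPM.

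Akr1c18 encodes 20α-hydroxysteroid dehydrogenase, which inactivates progesterone. It was in 30 cells at a mean of 416.5 TPM (SD 1340) with a median of 1 TPM, and all 30 had Cyp11a1 detected, at 73 TPM or more. Of all 56 cells, 51 had Cyp11a1 and 46 had it at 73 TPM or more. Cell T4_5 held 9422 TPM of it, 40.4% of the total. Its relatives Akr1c12 (21.2 TPM) and Akr1c13 (64.77 TPM) were in 26 cells each. The Akr1c genes are close paralogs, so the split of reads between them is uncertain. The broadly expressed Hsd17b10 (52 cells, 256.5 TPM) and Hsd17b12 (54 cells, 305.8 TPM) were in nearly every cell, and Hsd17b12 mainly serves fatty acid metabolism. Hsd17b4 was in 7 cells, Hsd17b11 in 3 and the sulfotransferase Sult2b1 in 23.

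**Figure D3:**
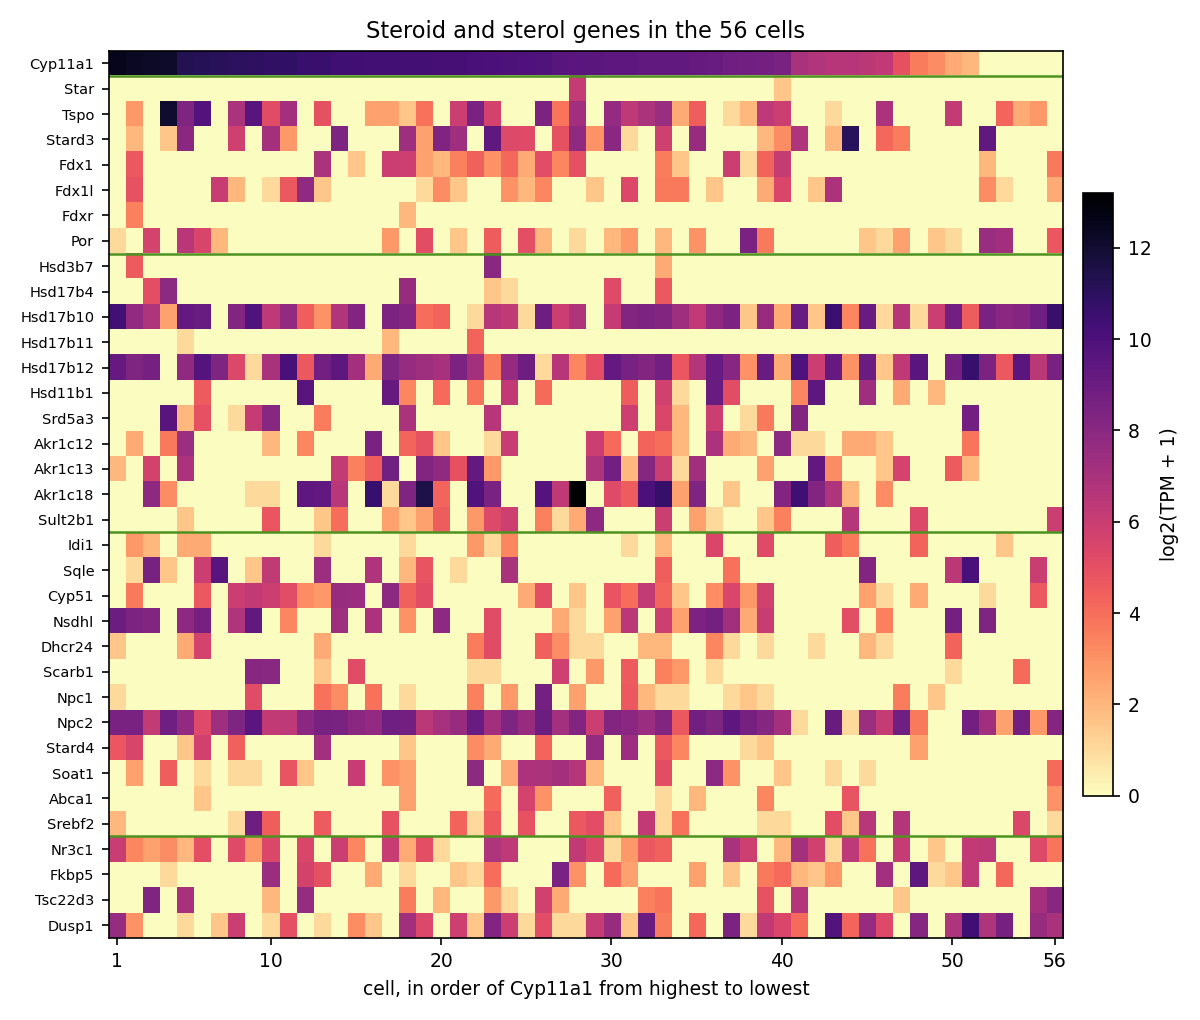
Levels as log2(TPM + 1) in the 56 cells, ordered from left to right by Cyp11a1 from highest to lowest, with genes in rows. Green lines separate Cyp11a1, cholesterol delivery and electron supply, steroid-converting enzymes, sterol genes and the glucocorticoid receptor with genes it induces. Star and Fdxr are seen in 2 cells each, and Hsd17b10, Hsd17b12 and Npc2 in at least 52.

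To find genes that go with Cyp11a1, Spearman's rho over the 56 cells was taken for each of 7870 other genes detected in at least 10 cells. The correlations describe these cells only. The points share 1 culture protocol and 1 table, and each cell's TPM values sum to the same total. The rho of Cyp11a1 with the number of genes detected was 0.13. Over all genes the median rho was 0.03 and the SD 0.135, which is also the SD of rho for unrelated ranks of 56 cells (1 divided by the square root of cells minus 1, 0.135), and 97.3% of genes lay between -0.3 and 0.3. At 0.3 or more were 162 genes (2.06%), and at -0.3 or less 53 genes (0.673%). The counts depend on which cells enter: 512 genes were at 0.3 or more without T5, and 159 at -0.3 or less without T3. The highest rho was 0.54 and the lowest -0.44.

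None of the 8 steroid-converting enzymes that entered was called at either threshold, against 2.06% and 0.673% of all genes. Their median rho was 0.04 (range -0.07 to 0.19), beside 0.03 over all genes. Akr1c18 had 0.16, Srd5a3 0.19, Akr1c13 0.09, Akr1c12 0.07, Sult2b1 0.02, Hsd17b12 -0.03, Hsd11b1 -0.04 and Hsd17b10 -0.07. With Hsd3b7, Hsd17b4 and Hsd17b11, 3 more are in the table, each in fewer than 10 cells.

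The 16 entered genes of cholesterol delivery and electron supply had a median of 0.05 (-0.20 to 0.26), and none was called. The highest was Tspo at 0.26 and the lowest Atad3a, a protein of mitochondrial membrane contacts, at -0.20. For Tspo the value was 0.78 within T1, -0.30 within T2, 0.16 within T3, 0.26 within T4 and 0.44 within T5, and it was 0.41 without T2 and 0.16 without T1. Fdx1 and Fdx1l were both at 0.08, Stard3 at 0.10, Cyb5 at 0.11, Cyb5r3 at 0.14, Por at -0.08 and Lonp1, the mitochondrial protease that degrades StAR, at -0.08. The other 7 lay between -0.09 and 0.09.

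Sterol synthesis supplies cholesterol from acetyl-CoA. Its 16 entered genes had a median rho of 0.10 (-0.11 to 0.27), and none reached 0.3. Of them 13 were above 0, as were most of all genes, whose median was 0.03. Nsdhl, which removes C4 methyl groups, had 0.27 (28 cells, 88.93 TPM), Cyp51 0.27 (30 cells, 22.12 TPM) and Lbr, a sterol reductase of the inner nuclear membrane with the highest mean of the list (209.5 TPM), -0.11. Nsdhl was at 0.43 without T5 and at 0.15 without T3.

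Genes of sterol uptake, storage, export and control were similar. Their 20 entered members had a median rho of 0.06 (-0.20 to 0.28) and none was called. Stard4, a cytosolic sterol carrier, was the highest at 0.28 (17 cells, 13.02 TPM), and all 17 cells had Cyp11a1, which was in 51 of 56 cells. Npc2, which hands cholesterol out of lysosomes, had 0.24 (53 cells, 245.2 TPM), the regulator Srebf2 -0.05 and the oxysterol receptor Nr1h2 -0.20.

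Among steroid receptors and glucocorticoid-induced genes, 1 of 13 was called and it ran against Cyp11a1, beside 0.673% of all genes at -0.3 or less. Dusp1, a phosphatase that shuts down MAP kinases, had a rho of -0.36 (42 cells, mean 105.5 TPM). In the 4 highest Cyp11a1 cells, T2_5, T3_4, T2_1 and T5_4, Dusp1 was at 194, 7, 0 and 0 TPM, and in the 5 cells without Cyp11a1 it was at 113, 399, 0, 187 and 125 TPM in the order named above. The rho was below 0 in each set (-0.13, -0.03, -0.19, -0.14 and -0.63) and -0.25 without T5.

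The glucocorticoid receptor Nr3c1 was in 38 cells at 27.23 TPM with a rho of 0.00. Its known target genes Tsc22d3 (0.04), Fkbp5 (-0.21), Per1 (-0.18) and Sgk1 (0.06) were not called. The highest of the list were Il7r, the interleukin-7 receptor, at 0.27, the phospholipid-binding protein Anxa1 at 0.25 and the receptor chaperone Fkbp4 at 0.22. Pgrmc1 had -0.12, Pgrmc2 0.19, Nfkbia 0.19 and Tgfbr3 -0.03. Klf9 was in 9 cells and Ddit4 in 5.

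**Figure D4:**
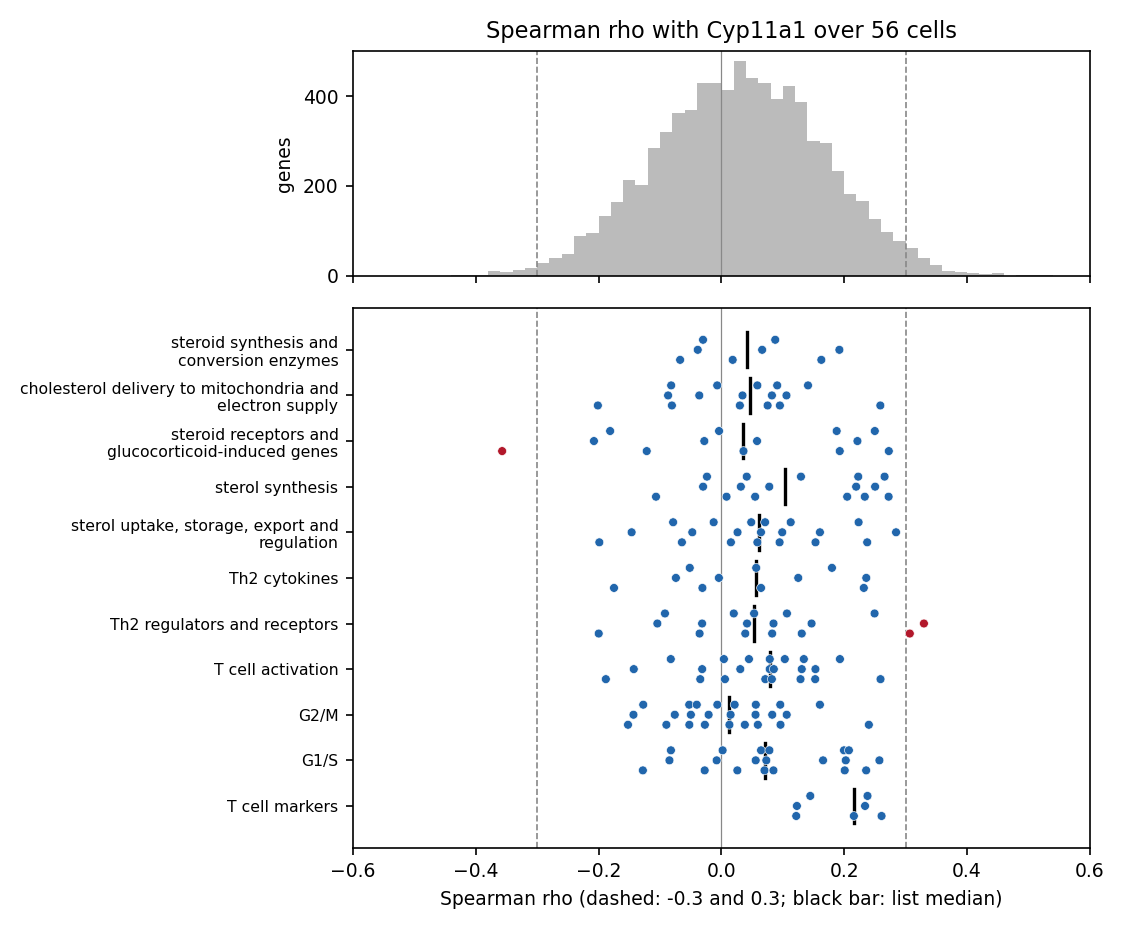
Top: number of genes at each Spearman rho with Cyp11a1 over 56 cells. Bottom: rho of each entered member of 11 gene lists, with list medians as black bars and members at -0.3 or less or 0.3 or more in red. Only Dusp1, Gata3 and Maf pass a dashed line, and T cell markers have the highest list median, 0.22.

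Of the Th2 regulators and receptors, 2 of 17 were called, both with Cyp11a1, beside 2.06% of all genes at 0.3 or more. Maf, the transcription factor that drives Il4, had a rho of 0.33 (38 cells, mean 155.4 TPM), and Gata3 had 0.31 (56 cells, 903.6 TPM). The median of the list was 0.05. Gata3 was at 2088, 1300, 717 and 2178 TPM in T2_5, T3_4, T2_1 and T5_4, and the cell with the most Gata3 was T5_4. Maf was at 652, 167, 105 and 895 TPM in the same cells and was listed at 0 in 3 of the 5 cells without Cyp11a1.

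The rho of Gata3 was above 0 in each set (0.40, 0.43, 0.21, 0.26 and 0.44 in T1 to T5), and that of Maf in all but T1 (-0.29, 0.61, 0.46, 0.31 and 0.31). Without the 4 highest Cyp11a1 cells Gata3 had 0.22 and Maf 0.24, both below the threshold. Gata3 stayed at 0.3 or more in 4 of 12 alternatives and Maf in 8.

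No Th2 cytokine was called. Among the 11, Il4 had a rho of 0.24, Il10 0.23, Il13 0.18, Il5 0.06, Il3 0.00 and Il6 -0.17, the lowest. The value for Il4 was 0.68 within T3 and 0.52 within T4, but -0.36 within T1, -0.13 within T2 and 0.03 within T5. In cells T5_4 and T3_4, with 4602 and 5092 TPM of Cyp11a1, Il4 was at 21171 and 12196 TPM, while in T2_1, with 4615 TPM of Cyp11a1, it was at 94 TPM.

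T cell markers, 7 measured of 10 listed, had the highest list median, 0.22, beside 0.03 over all genes. Over 56 cells all 7 were above 0 (0.12 to 0.26) and none was called, but each was below 0 within some set. Within T1 to T5, Cd3d was at -0.74, 0.17, 0.35, 0.03 and 0.02, and Lck at 0.24, 0.30, 0.07, -0.31 and 0.54. Cd2 was at 0.26, Lck at 0.24 and Cd3e at 0.23. Without T3 the value of Cd3e was 0.15, and without the 4 highest cells that of Cd2 was 0.16. Activation genes had a median of 0.08 with Il2ra, the interleukin-2 receptor chain, highest at 0.26, Cd44 lowest at -0.19 and the nuclear receptor Nr4a1 at -0.03. Genes of G2/M (median 0.01, -0.15 to 0.24) and G1/S (0.07, -0.13 to 0.26) held no called member.

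Mast cells and basophils were covered because they could also hold Cyp11a1 and Th2 cytokines. Of 14 listed markers 2 were analysed here. The mast cell protease Cpa3 was in 5 cells, at 160 TPM in T4_2 and at 13 TPM or less in the others, which held 73 to 1842 TPM of Cyp11a1. Hdc was in T1_6 at 18 TPM and in T3_2 at 2 TPM. Both were at 0 in each of the 4 highest Cyp11a1 cells. The B cell gene Cd74 had a rho of -0.04, and Cd8b1 was in 1 cell, T3_5. Myeloid markers were not analysed here.

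The genes of highest and lowest rho were picked from all 7870 by that value, so their size is a description. The highest rho belonged to 5730403B10Rik (0.54, 33 cells, mean 40.3 TPM) and to Mrpl2, a protein of the mitochondrial ribosome (0.51, 39 cells, 90.7 TPM). Of the 33 cells with 5730403B10Rik, 32 had Cyp11a1, and the cell with the most of it was again T5_4 (648 TPM). It was at 42, 0 and 41 TPM in T2_5, T3_4 and T2_1. Within T1 to T5 its rho was 0.90, 0.76, 0.60, 0.54 and 0.45, and over 12 alternatives it lay between 0.50 and 0.58. For Mrpl2 the values were 0.02, 0.80, 0.36, 0.79 and 0.34, and 0.39 to 0.57.

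The next were Rfx5 (0.49), a transcription factor of MHC class II genes, Spry2 (0.46), an inhibitor of receptor signalling to ERK, and Rnf4 (0.45), a ubiquitin ligase for SUMO-modified proteins. The ubiquitin-conjugating enzyme Ube2q1, the membrane protein Lrig2, the lymphocyte survival GTPase Gimap5 and Sptlc1, a subunit of the enzyme that starts sphingolipid synthesis, were each at 0.44. Ubxn4, which acts in degradation of endoplasmic reticulum proteins, 9030624J02Rik, Dennd4b and Sec13, a coat protein of vesicles leaving that organelle, were at 0.42, and Hs3st1 and the replication origin protein Orc1 at 0.41. Of these 15 genes, Rfx5, Hs3st1, Lrig2 and 9030624J02Rik were in 12 to 19 cells, and every such cell had Cyp11a1. Cyp11a1 was in 51 of 56 cells, and a choice by high rho favours such genes, so the overlap adds no support.

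The widely detected genes of this group were Sec13 and Ubxn4 (53 cells each, means 591.4 and 90.0 TPM) and Rnf4 and Gimap5 (52 cells each, means 275.3 and 272.6 TPM). Within sets, rho ran from 0.27 to 0.72 for Sec13, from 0.24 to 0.59 for Rnf4 and from 0.18 to 0.62 for Gimap5. For Ubxn4 it was 0.31, 0.59, 0.30, -0.06 and 0.68 within T1 to T5. Of the 15, 13 stayed at 0.3 or more in all 12 alternatives, which reuse most of the cells that chose them and so are no sign of stability. The exceptions, with Pearson's r of log2(TPM + 1), were Sec13 at 0.29 and Hs3st1 at 0.27. Of all 162 genes called with Cyp11a1, 21 stayed at 0.3 or more in every alternative.

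The lowest values belonged to Mib1, a ubiquitin ligase that activates Notch ligands, and Dus4l, which modifies transfer RNA (both -0.44, 27 cells each). In the 27 cells with Mib1, Cyp11a1 was at most 2379 TPM, a level at rank 6 of all cells. Mib1 was picked by its low rho, so this adds no support. The RNA helicase Ddx18, found in all 56 cells at a mean of 82.73 TPM, had -0.41. Oxsr1 (-0.39), Ppcdc (-0.38), Cep135, Rufy1, Mtmr2, Cox7a2l and Gaa (-0.37 each) followed. Mtmr2, a lipid phosphatase detected in all cells, was at -0.82 within T5 and 0.39 within T3, and at -0.18 without T5. Of the 53 genes called against Cyp11a1, 3 stayed at -0.3 or less in every alternative.

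**Figure D5:**
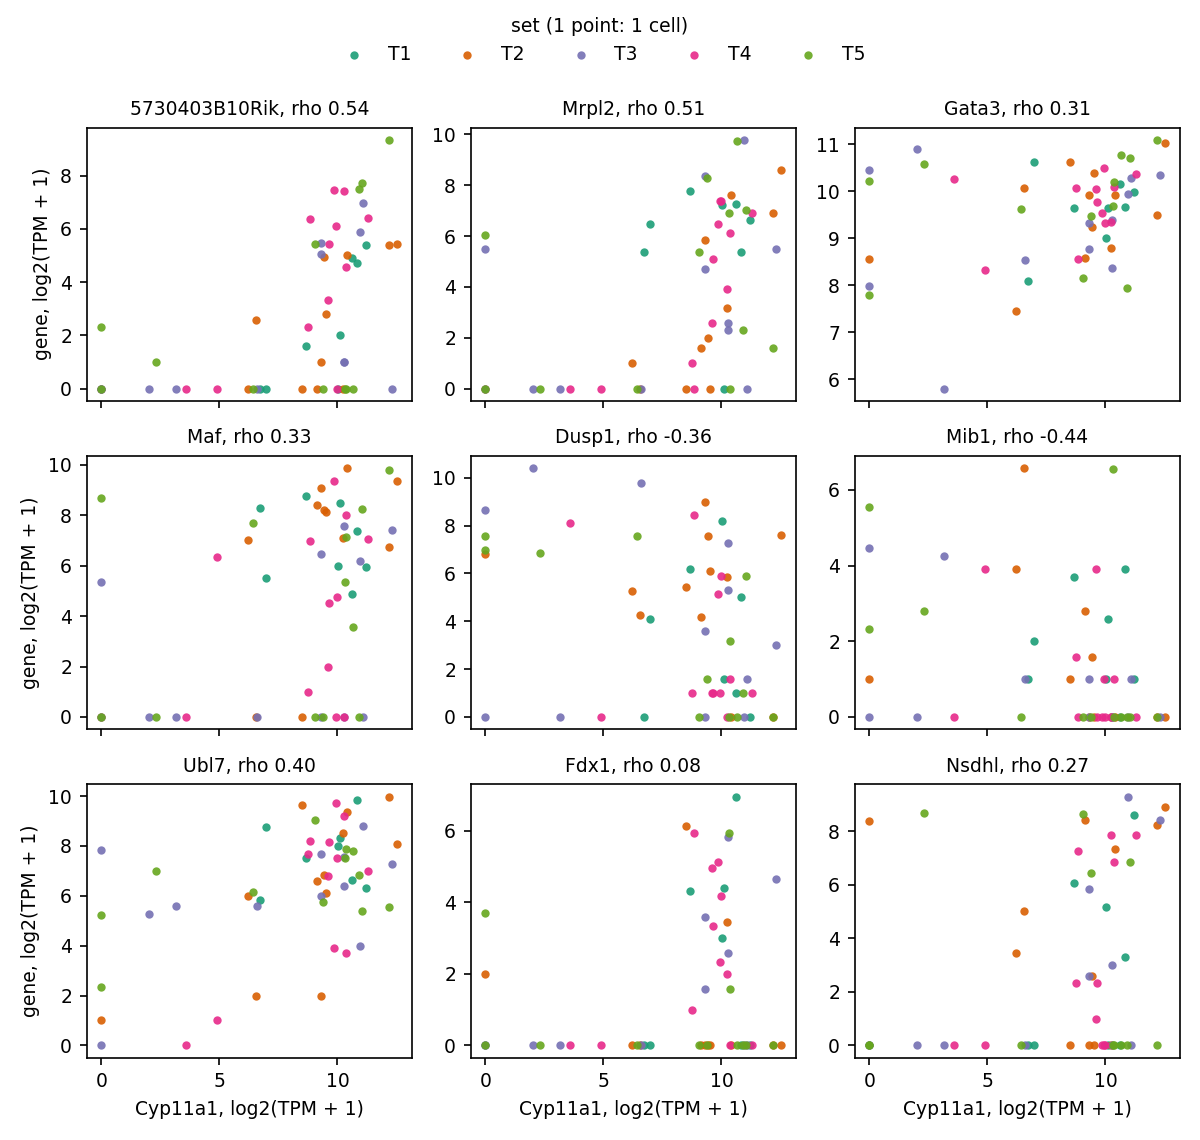
Log2(TPM + 1) of 9 genes (vertical) against Cyp11a1 (horizontal), 1 point per cell, coloured by set, with Spearman rho over 56 cells in each title. Points along the bottom are cells where the gene is listed at 0. Fdx1 (rho 0.08) is at 0 in each cell with 3 to 126 TPM of Cyp11a1, a range set by a gap in these values. It is detected in T2_8 and T5_7, where Cyp11a1 is at 0.

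Neighbouring genes were taken from RefSeq's GRCm38.p6 annotation, newer than the mm9 build of the files, for gene order alone. In it Cyp11a1 lies on chromosome 9. Its nearest measured neighbour, Sema7a, a membrane-anchored semaphorin, was in 14 cells with a rho of 0.03. The next measured gene on that side, Ubl7, a ubiquitin-like protein, was in 54 cells at a mean of 207.4 TPM with a rho of 0.40, rank 21 of 7870 genes. It was at 267, 154, 999 and 46 TPM in T2_5, T3_4, T2_1 and T5_4, and T2_1 held its highest value. Within T1 to T5 its rho was 0.12, 0.68, 0.33, 0.30 and 0.19, and without T2 it was 0.27. On the other side, Stra6, a receptor for retinol-binding protein, had 0.27 (19 cells), and 1600029O15Rik was in 1 cell.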

How the data were processed

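Single-cell RNA-seq was described for 56 mouse Th2 cells, 1 library each. The deposited values are a score: TPM that the authors rounded to integers (columns sum to 999202 to 999914). Each of the 10565 genes reaches 5 TPM in some cell. The submitters' processing notes name the build mm9 and the tools FastQC, Bowtie 0.12.2 and Cufflinks; their roles, and how strand or overlapping genes were treated, are not given in the sources used here. Depth is unknown.

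With Python 3.11.15, numpy 2.4.6, pandas 2.3.3 and scipy 1.17.1, Cyp11a1 was described by levels, exact Clopper-Pearson intervals, excess CV2 (over a running median) and Spearman's rho with genes at 1 TPM or more in at least 10 cells. Thresholds were 0.3 and -0.3. Functions were tested on simulated data. No test between cells was run, because the cells are 1 sample. Named genes were Cyp11a1, members of the steroid, receptor and marker lists, for other lists the highest mean and the highest and lowest rho, 9 fixed genes, the 15 highest and 10 lowest rho, and the 2 nearest measured neighbours on each side. Cyp51 was added afterwards, and some named genes are not reported here. The members and lists were chosen with earlier results of these data known. Symbols were matched to GRCm38.p6 annotation (9510 current, 952 older, 103 unmatched). Alternatives left out sets or cells, centred ranks by set, adjusted for genes detected, or used Pearson's r, other filters and rescaled TPM.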

Additional observations from a re-analysis of the deposited data

How the results depend on the processing

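The mean and excess variation of Cyp11a1 moved less than the rank of that excess and the counts of correlated genes. The share of cells was 75.0% at 100 TPM or more and lay within its interval under the other alternatives. The mean lay between 1028.5 and 1181.7 TPM without the highest cell, T3_2 and T3_5, or any set. Excess CV2 stayed above 1 in all 11 alternatives on that scale, and the SD of log2(TPM + 1) or of log2(TPM + 10), another scale, gave 1.99 and 1.35, at ranks 20 and 18 of 7871 genes.

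Against 162 genes at 0.3 or more, there were 277 with Pearson's r, 262 without T1, 245 without T2, 512 without T5 and 251 without the 4 highest cells. Against 53 genes at -0.3 or less, there were 102 as partial rho on genes detected, 86 without T1, 145 without T2, 159 without T3, 142 without T4, 83 without the 5 cells at 0 and 34 with detection in at least 20 cells. Fewer cells enter when a set is left out. Leaving out the 5 cells at 0 or the 4 highest was chosen after seeing the data. The 2 cells farthest from the median, T2_8 and T3_1, were taken in label order from the 5 tied at 0. Among named genes, no called rho changed sign, and 26 values over all alternatives fell below the threshold and 46 passed it. With TPM and no depth, low genes such as Fdx1, Fdxr and Star cannot be told apart from lost transcripts. The sets cannot be told apart from batches.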

Other observations

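The table holds 8 cytochrome P450 genes, a group picked by symbol after the values were seen. Cyp11a1 made up 91.5% of their summed TPM. Cyp20a1, whose substrate is unknown, was in 17 cells at a mean of 54.73 TPM, with a highest value of 1138 TPM in T3_7, where Cyp11a1 was listed at 0. The sterol demethylase Cyp51 held 1.82% of the sum. The 5 Cyp4 genes, of a family known for fatty acid hydroxylation, were in 2 to 8 cells each, with Cyp4f13 the highest at 15.04 TPM.

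Among the named genes, several of the highest values fell in cell T5_4. It held 4602 TPM of Cyp11a1 and the highest single values of Gata3 (2178 TPM), Tspo (4179 TPM), Il10 (23652 TPM) and 5730403B10Rik (648 TPM), while Fdx1, Fdxr and Star were at 0 in it. Of these, 5730403B10Rik was named for its high rho with Cyp11a1. The share of all genes that are highest in T5_4 was not counted. Cell T2_5, the highest for Cyp11a1, had Tspo, Fdx1, Fdxr and Star all listed at 0.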
